A study of Triticum aestivum and Triticum turgidum subsp. durum with 27 samples.

Results

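A set of 109 probe sets of the Wheat Genome Array, out of 61179 without the manufacturer's controls, was raised by severe drought in the glumes of bread wheat and changed little in those of durum wheat. The members were chosen by their measured values. In both CS and CS_5AL-10 the lowest of the 3 severe stress signals was at least 1.5 times the highest of the 3 control signals, and in Creso the ratio of the mean severe stress signal to the mean control signal lay between 0.67 and 1.5, with a control mean of at least 100. The bread wheat condition alone was met by 388 probe sets. Of these, 209 rose by more than 1.5 times on average in Creso, 5 fell below the ratio of 0.67 and 65 had a Creso control mean under 100, which left the 109. The mirror rule, raised in Creso and flat in both bread wheats, was met by 187 probe sets, and 153 probe sets rose by the same 1.5 ratio in all 3 genotypes.

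The glumes are the green bracts that enclose the wheat floret, and they photosynthesise and lose water beside the filling grain. Chlorophyll a/b binding proteins collect light around the photosystems, the Calvin cycle enzymes of the chloroplast fix carbon dioxide with the energy gained, and catalase removes the hydrogen peroxide that photorespiration releases. Drought is known to close stomata, to limit carbon dioxide and to load these systems with excess light energy. Bread wheat carries the A, B and D genomes, and durum wheat carries A and B alone.

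Each array held glume RNA of 1 biological replicate, with 3 arrays in each of 9 groups. CS is the bread wheat cultivar Chinese Spring, CS_5AL-10 is its deletion line for the distal end of the 5A long arm, and Creso is a durum wheat cultivar. Control plants (CTRL) stood in soil at 28% water content, mild stress (MS) plants at 18% and severe stress (SS) plants at 12.5%, after watering of the stressed plants was stopped 3 days past anthesis. The labels give a stage of 7 days after anthesis for Creso and of 10 days for CS and CS_5AL-10 in all 3 treatments, so species and stage cannot be told apart. All plants of a genotype, CTRL included, share these features, and the deletion line is 1 line. The study's methods state later harvest days than the labels, for Creso and for the bread wheats alike. The study also reports a more negative leaf water potential in Creso at each soil water content. Depth of stress therefore cannot be told apart from species either. The CTRL and SS arrays chose the members, so the values of these arrays are given as a description, and tests were made only between the genotypes at MS, with 9 arrays.

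The deposited values are MAS5 signals on a linear scale. The median signal of an array ranged from 59.1 to 99.1, and all 9 Creso arrays had medians of 79.7 or less. Levels and differences below are therefore on the log2(signal + 16) scale with each array centred on the common median, unless a signal is named. All 109 members were among the 34089 probe sets that passed the filter on dim signals. They belong to 92 transcript clusters, and 28 of them share a cluster with another member, at most 4 in a cluster, so that they are not 109 separate genes. A name could be given to 51 members, 46 of them from an Arabidopsis match in the study's list of drought-regulated probe sets and 8 from the platform annotation. That list was made from these arrays.

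In mean level over the members, CS rose from 9.81 to 10.22 on its CTRL arrays through 10.85 to 10.97 under MS to 11.38 to 11.46 under SS. CS_5AL-10 went through nearly the same values, at 9.79 to 10.10 without stress, 10.62 to 10.86 under MS and 11.38 to 11.49 under SS. The groups did not overlap in either bread wheat, and the CTRL to SS step is what the rule selected. In Creso the mean level was already 11.07 to 11.22 in CTRL, 11.09 to 11.45 under MS and 11.50 to 11.76 under SS. Creso CTRL thus lay above the MS level of both bread wheats and just under their SS level.

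**Figure D1:**
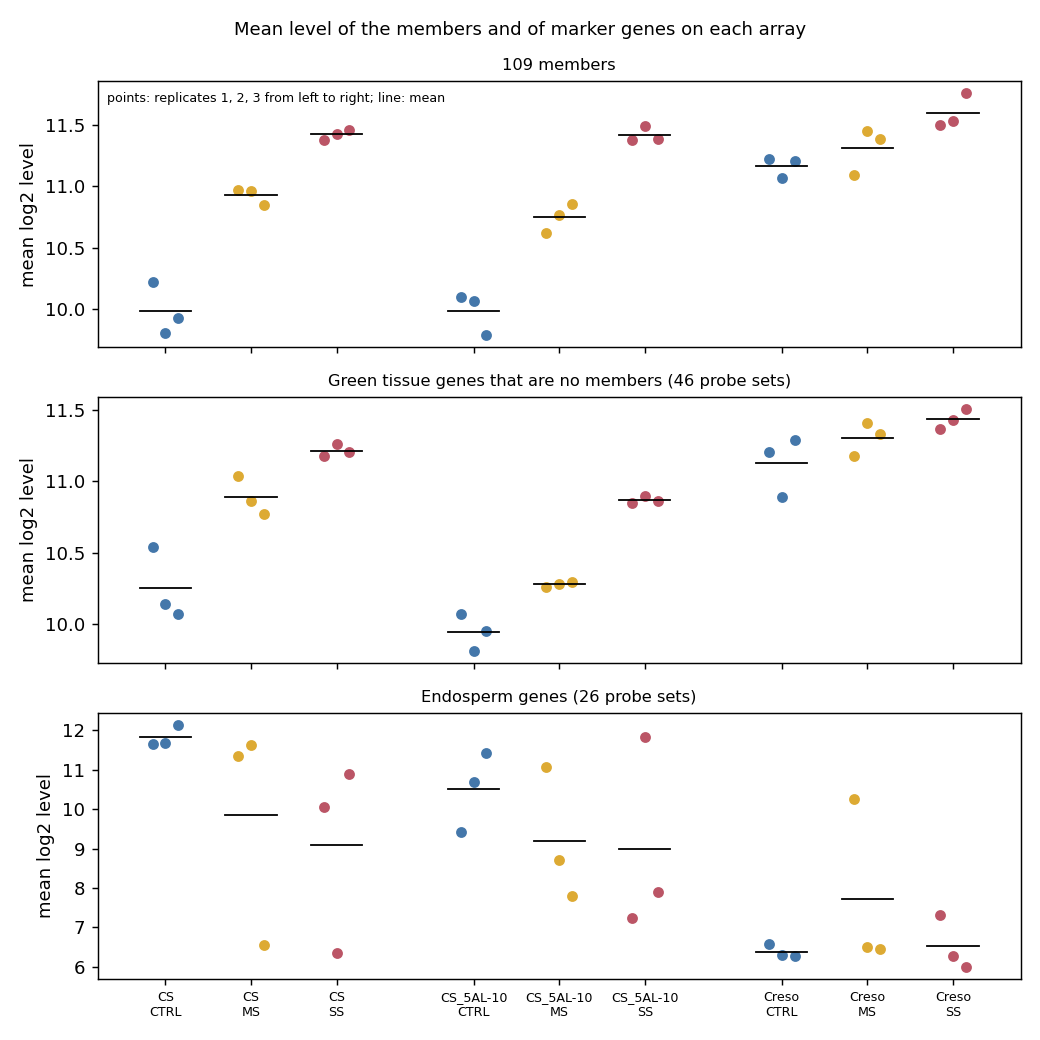
Mean log2 level of the 109 members, of 46 green tissue probe sets that are no members and of 26 endosperm probe sets on each of the 27 arrays, with points for replicates 1 to 3 from left to right and a line at the mean. The members step up from CTRL to SS in CS and CS_5AL-10 and start at 11.07 or higher in Creso, while the endosperm level ranges from 6.56 to 11.63 among the CS MS arrays alone.

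The name "flat" holds for Creso only within the width of the rule. The median ratio of mean SS to mean CTRL signal was 1.28 over the members in Creso and 97 members had a ratio above 1. On 44 members all Creso SS signals lay above all Creso CTRL signals, where 15.9% of all tested probe sets did so, and on 2 members they all lay below, where 15.9% did. On the centred scale the median difference between SS and CTRL was 0.48 in Creso, from -0.39 to 0.77, against 1.34 in CS and 1.33 in CS_5AL-10. Over all tested probe sets these medians were 0.13, 0.06 and 0.06. The rule used the CTRL and SS arrays, so these values describe the members and carry no test. The rule reads signals that are not centred, and of the 99 probe sets that met it on centred signals 67 were members, so that 42 of the 109 depend on the scale. A Creso range narrowed to 0.8 and its inverse kept 41 members.

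The MS arrays took no part in the choice, although the CTRL arrays they are set against did. In CS the MS mean was above the CTRL mean for 108 members, with a median difference of 0.90 against 0.15 over all 34089 probe sets tested. In CS_5AL-10 it was likewise above for 108 members, with a median of 0.74 against -0.04 over all tested. In Creso it was above for 84 members, with a median of 0.12 against 0.07. All 3 MS arrays lay above all 3 CTRL arrays on 91 members in CS, where 20.6% of all tested probe sets did so, on 87 members in CS_5AL-10, where 10.6% did, and on 7 members in Creso, where 8.77% did. The Creso count was 11 without centring and 14 with quantile normalization. A total of 74 members did so in both bread wheats and 6 in all 3 genotypes. The rule favours low CTRL arrays in bread wheat, so these counts carry no test.

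**Figure D2:**
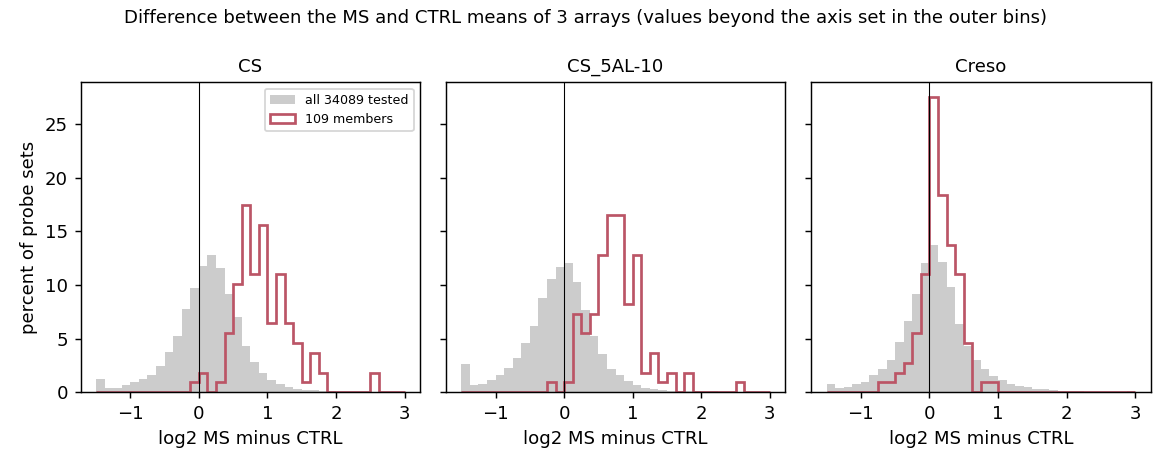
Share of probe sets (percent) by their log2 difference between the MS and CTRL means in each genotype, for all 34089 tested (grey) and the 109 members (line). The members centre on 0.90 in CS and 0.74 in CS_5AL-10, and on 0.12 in Creso.

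The MS mean lay between the CTRL and SS means for 103 members in CS, where 42.9% of all tested probe sets had it there, and for 107 in CS_5AL-10, where 44.4% did. The rule set CTRL and SS far apart, which favours such a count. The median member had covered 68.2% of its log2 change to SS in CS and 53.5% in CS_5AL-10. These are shares of a change that the rule fixed in sign.

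Transcripts of the grain were present on many arrays. Their level was lower under stress in CS, overlapped between treatments in CS_5AL-10 and was low in Creso apart from 1 array. The endosperm list (26 probe sets for storage proteins, amylase inhibitors and starch synthesis) had a mean level of 11.66 to 12.14 in CS CTRL, 6.56 to 11.63 in CS MS and 6.34 to 10.89 in CS SS. In CS_5AL-10 the range was 9.41 to 11.43 in CTRL, 7.80 to 11.07 in MS and 7.24 to 11.82 in SS. In Creso it was 6.01 to 7.31 on every array but MS replicate 1, where it was 10.25. Within some groups the members moved against the endosperm level. In CS_5AL-10 MS the member mean was 10.62 on the array with an endosperm level of 11.07 and 10.86 on the array with 7.80. In CS_5AL-10 CTRL it was 9.79 with 11.43 and 10.10 with 9.41, and in Creso MS it was 11.09 with 10.25 and 11.45 with 6.50. In other groups it did not. CS SS replicate 2, with an endosperm level of 6.34, had a member mean of 11.43, between the 11.38 and 11.46 of the CS SS arrays with 10.06 and 10.89. CS_5AL-10 SS replicate 2, with the highest endosperm level of its group, 11.82, also had its highest member mean, 11.49. The part of the endosperm transcripts in the members' values was not tested. The CTRL arrays of CS were all high in endosperm transcripts, so a CTRL to SS comparison free of them cannot be made in CS.

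The list of green tissue genes without the members (46 probe sets) moved with the members, with group means of 10.25, 10.89 and 11.22 for CTRL, MS and SS of CS and of 9.94, 10.28 and 10.87 for those of CS_5AL-10. In Creso it went from 11.13 to 11.31 and 11.44. Most of this list comes from the study's own list of drought-regulated probe sets. Its 17 probe sets that the platform annotation names went from 10.44 to 10.75 between CTRL and SS in CS, from 10.20 to 10.46 in CS_5AL-10 and from 11.14 to 10.92 in Creso. Most of the 17 are named for 1 gene, rbcl, and several of these are dim, so the mean largely follows that gene. For the others (PRK, PsbO, PsbP and petC) SS minus CTRL was 0.05 to 0.82 in CS, 0.58 to 0.96 in CS_5AL-10 and -0.30 to 0.03 in Creso. The part of green tissue content in the members' values was not tested. The anther and pollen list had only 4 tested probe sets, with group means of 9.22 to 9.65 in bread wheat and of 10.43, 9.92 and 9.03 in Creso CTRL, MS and SS. With RNA of whole glumes, fewer cells of a type and less RNA per cell cannot be told apart.

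Genes of photosynthesis and the chloroplast were the largest named group, with 14 members out of 94 tested probe sets of that list, beside 0.32% of all tested. Most names come from the study's list of drought-regulated probe sets, which is held in part, and 58 members have no name. The rank and share of this group therefore depend on which probe sets carry a name and are no result about these genes. Of these 14, all MS arrays lay above all CTRL arrays in CS for every member, in CS_5AL-10 for 12 and in Creso for 1, beside 83.5%, 79.8% and 6.42% of all members and 20.6%, 10.6% and 8.77% of all tested probe sets. Creso CTRL lay above the CS SS level for 10 of them and between CS CTRL and CS SS for the other 4. Against Creso at MS, 3 of the 14 were called lower in CS (adjusted p under 0.05 and at least 2-fold), where 12.1% of all tested probe sets were, and 7 in CS_5AL-10, where 18.9% were. None was called higher in either.

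Light harvesting was represented by 3 chlorophyll a/b binding proteins. Ta.27751.2.S1_x_at, which matches the photosystem II antenna protein LHCB2, had signals of 6842, 3846 and 3486 in CS CTRL, of 14473, 12657 and 10429 in CS MS and of 14779, 16911 and 13696 in CS SS. Its signals in CS_5AL-10 were 4711, 3031 and 3972 in CTRL, 9575, 9357 and 6850.0 under MS and 13916, 12547 and 12082 in SS. In Creso they were 20178, 15845 and 21702 in CTRL, 23755, 23075 and 23902 under MS and 22272, 22469 and 22107 in SS. No bread wheat array but CS SS replicate 2 reached the lowest Creso array, and MS in bread wheat did not overlap with CTRL. At MS the probe set was lower than in Creso by a log2 difference of -1.07 in CS (SE 0.21, adjusted p = 0.00017) and -1.79 in CS_5AL-10 (SE 0.21, adjusted p = 1.1e-07).

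Ta.1139.1.S1_at matches CP26 (LHCB5), a minor antenna protein that links the outer antenna to the photosystem II core. Its signals were 11265, 5721 and 7219 in CS CTRL, 23329, 13623 and 13751 in CS MS and 18129, 34602 and 26416 in CS SS, so that MS and SS overlapped. In Creso they were 29432, 20267 and 24265 in CTRL, 23858, 20825 and 31696 under MS and 25616, 26836 and 28945 in SS, with full overlap of CTRL and MS. The differences from Creso at MS, -0.76 in CS (adjusted p = 0.019) and -0.92 in CS_5AL-10 (adjusted p = 0.0038), passed the p threshold but were under 2-fold. Ta.3795.1.S1_x_at, which matches the antenna protein LHB1B2, was far dimmer, with signals of 44.6 to 191 in CS CTRL, 171 to 279.6 in CS MS, 332 to 618 in CS SS and 282 to 718 in Creso CTRL. It was called lower than Creso at MS in CS (-1.22, SE 0.39, adjusted p = 0.014) and in CS_5AL-10 (-1.83, SE 0.39, adjusted p = 0.0004).

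Ta.1161.1.S1_at matches PSBS, the photosystem II protein that triggers the release of excess light energy as heat. It is an edge member, since its smaller bread wheat ratio was 1.5023 and its Creso ratio 1.492, both just inside the limits. Its mean signals rose from 12700.3 in Creso CTRL to 15631 in MS and 18949 in SS, and its label as flat in Creso rests on that limit. Ta.20911.1.A1_at, a member of the PsbP family of photosystem II, went the other way in Creso, with CTRL signals of 2964, 3074 and 2745 and SS signals of 1884, 1997 and 2417. In CS it rose from 1249.6, 1422 and 1162 in CTRL through 1826, 2006 and 1787 under MS to 2706, 2408 and 2256 in SS, and in CS_5AL-10 from 603, 570.2 and 681 through 1107, 869.6 and 1006 to 1647, 1792 and 1104. At MS it was lower in CS_5AL-10 than in CS, with a log2 difference of -1.09 (SE 0.19, adjusted p = 0.00058). Another probe set of this cluster with the same match, Ta.20911.2.A1_at, is no member and rose in Creso. Its mean signals there were 937.4, 1231.5 and 1756.0 in CTRL, MS and SS, so the direction in Creso depended on the probe set.

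The carbon side of photosynthesis held 4 members. Chloroplast glyceraldehyde-phosphate dehydrogenase (Ta.30808.1.S1_s_at), which reduces the first product of carbon fixation, had signals of 11924, 10839 and 11018 in CS CTRL, 19653, 15509 and 16081 in CS MS and 19658, 24348 and 23408 in CS SS. In Creso all 9 arrays lay between 21437 and 28629, a range that overlaps SS in CS and lies above all its CTRL arrays. The difference from Creso at MS was -0.66 in CS (adjusted p = 0.00059), under 2-fold, and -1.04 in CS_5AL-10 (SE 0.14, adjusted p = 1.7e-06). Phosphoglycerate kinase (Ta.2307.1.S1_at, Pgk-1), which acts just before it in the cycle, went from a mean signal of 7652 ± 1189.6 in CS CTRL (SD, n = 3) to 12752 ± 1133 in MS and 15995 ± 1302 in SS. In Creso its means were 18388 ± 1275, 18347 ± 2394 and 16079 ± 1915, with a Creso ratio of 0.874. Fructose bisphosphatase (Ta.1166.2.S1_a_at), which feeds carbon from the cycle to starch and sucrose, went from a mean of 4958 ± 362 through 8753 ± 945 to 9899.6 ± 242 in CS, and in Creso from 7454 ± 108 through 8842 ± 1009 to 9549.8 ± 942. Of the non-members with this match, Ta.1166.2.S1_at had Creso means of 6769.7, 8029.5 and 8484.1, a rise like that of the member. Ta.1166.1.A1_at (388.8, 538.8 and 813.0) and Ta.1166.1.A1_x_at (804.3, 1169.5 and 1559.8) rose more in Creso. For Ta.1166.2.S1_a_at the difference between CS and Creso at MS did not pass the test (-0.16, SE 0.15, adjusted p = 0.41). Phosphoglycolate phosphatase (Ta.3256.1.S1_at), the entry enzyme of photorespiration, was likewise not called against Creso at MS (-0.33, SE 0.14, adjusted p = 0.065 in CS).

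Redox and regulatory members of the chloroplast list follow. The catalytic chain of ferredoxin-thioredoxin reductase (Ta.12788.1.S1_x_at), which passes light-driven electrons on to enzymes of the chloroplast, had signals of 6155, 5087 and 5219 in CS CTRL, 8090.2, 8017 and 9452 under MS and 11882, 11852 and 10411 in SS. In Creso CTRL it stood at 18910.0, 18370.0 and 18591, above every bread wheat array, and at MS it was lower than Creso by a log2 difference of -1.06 in CS (SE 0.18, adjusted p = 4.9e-05) and -1.49 in CS_5AL-10 (SE 0.18, adjusted p = 2.9e-07). The sigma factor SigA (Ta.23759.1.S1_at), a nuclear-encoded factor that lets the plastid RNA polymerase find its promoters, had mean signals of 1972, 2809 and 3915 in CS CTRL, MS and SS and of 3936, 4140.5 and 5559 in Creso. Ta.10473.3.S1_a_at and Ta.10473.1.S1_at, 2 probe sets with a weak match to a factor for maturation of a chloroplast messenger RNA, were higher in CS_5AL-10 MS than in CS MS by 0.61 (adjusted p = 0.047) and 0.51 (adjusted p = 0.092), below 2-fold.

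**Figure D3:**
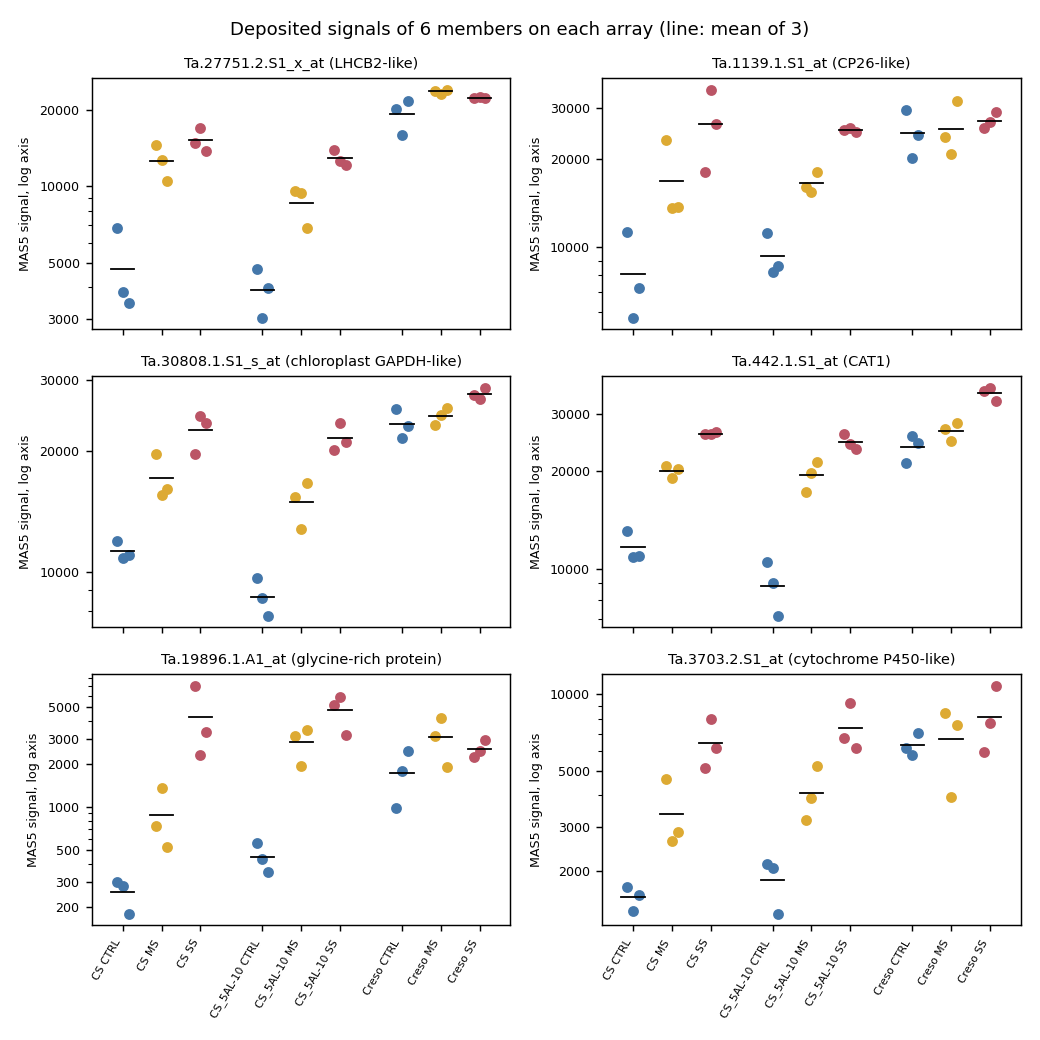
Deposited MAS5 signal (log axis) of 6 members on each of the 27 arrays, with a line at the mean of 3. Creso CTRL lies far above CS CTRL in all 6 panels (LHCB2, CP26, dehydrogenase, CAT1, glycine-rich protein and P450), and for CAT1 its mean of 23680.3 is near the CS SS mean of 26081.

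Among 10 members of the redox and detoxification list, catalase CAT1 (Ta.442.1.S1_at) had signals of 13072, 10845 and 10932 in CS CTRL, 20765, 19010.0 and 20277 in CS MS and 25968, 25952 and 26324 in CS SS. In Creso its signals were 21102, 25621 and 24318 in CTRL, 26862, 24769 and 28096 under MS and 35315, 36104 and 32990.0 in SS. The Creso SS arrays were all above the CTRL arrays, with a ratio of means of 1.47 that fell just inside the limit. At MS CAT1 was below Creso by less than 2-fold, -0.55 in CS (adjusted p = 0.0023) and -0.78 in CS_5AL-10 (adjusted p = 4.6e-05).

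A cytochrome P450 similar to the CYP72A family was present as 3 probe sets of the cluster Ta.3703. Cytochromes P450 are oxygenases of hormone, wax and secondary metabolism. The probe set Ta.3703.2.S1_at had the second largest ratio of the members, at least 2.87 in both bread wheats, with mean signals of 1582, 3372 and 6426 in CS CTRL, MS and SS and of 6317, 6639 and 8132 in Creso. It was called lower than Creso at MS in CS (-1.09, SE 0.27, adjusted p = 0.0023) and fell just short of the 2-fold limit in CS_5AL-10 (-0.97, SE 0.27, adjusted p = 0.0043). In CS, Ta.3703.2.S1_s_at gave -0.59 (adjusted p = 0.062) and Ta.3703.1.A1_at gave -0.87 (adjusted p = 3.6e-05), both under 2-fold. Prx1 (Ta.6572.1.S1_a_at) was lower than Creso at MS in CS (-1.26, SE 0.20, adjusted p = 2.2e-05) and in CS_5AL-10 (-1.74, SE 0.20, adjusted p = 1.6e-07). Of the cluster's non-members, Ta.6572.1.S1_at had MS means of 3255.4 in CS and 9339.8 in Creso, and the dim Ta.6572.3.S1_at of 134.2 and 175.9. Ta.6572.2.S1_at lay the other way, with means of 1295.6, 1650.0 and 2592.0 in CS and 53.6, 41.6 and 8.3 in Creso. The direction against Creso thus differed between probe sets of this cluster.

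The member with the largest ratio was a glycine-rich protein, Ta.19896.1.A1_at, with a ratio of lowest SS to highest CTRL signal of 7.74 in CS and 5.68 in CS_5AL-10. Plant glycine-rich proteins include cell wall proteins and RNA-binding proteins, and the match does not say which this is. Its signals were 297, 281 and 178 in CS CTRL, 732, 1357 and 525 in CS MS and 7028, 2299.5 and 3327 in CS SS. In CS_5AL-10 they were 563, 428 and 349.8 in CTRL, 3111, 1935 and 3449 under MS and 5129.9, 5844 and 3194 in SS, so that MS already reached the range of SS there. In Creso they were 981, 1776 and 2441 in CTRL, 3123, 4171 and 1889.6 under MS and 2218, 2459.8 and 2951 in SS. At MS, CS was lower than Creso by -1.97 (SE 0.38, adjusted p = 0.0002) and CS_5AL-10 was higher than CS by 1.57 (SE 0.38, adjusted p = 0.012).

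A glycosyltransferase matching UGT72B1 (Ta.22353.1.S1_at), an enzyme that in Arabidopsis couples sugars to phenolic compounds and foreign chemicals, stood near the array medians in Creso. Its signals were 117, 156.8 and 168 in CS CTRL, 542, 1412 and 687 in CS MS and 3267, 930.5 and 1659 in CS SS. In CS_5AL-10 they were 171, 183 and 132 in CTRL, 492, 454 and 338 under MS and 1136, 2291 and 506 in SS. In Creso the 9 arrays ranged from 79.9 to 239.4, and its 3 treatments overlapped. At MS it was called higher than in Creso in CS (adjusted p = 1.4e-05) and in CS_5AL-10 (adjusted p = 0.0021), with no exact fold given against so low a signal.

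The other members with the largest ratios have no name in the sources used here. The probe set Ta.438.2.S1_x_at rose from 3428, 2598 and 4251 in CS CTRL through 7624, 9462 and 7229.6 under MS to 17036, 15536 and 16745 in SS, and its Creso signals were 10474, 15350.0 and 18283 in CTRL and 19817, 21618 and 23900.0 in SS. A second probe set of that cluster, Ta.438.1.S1_a_at, gave a difference from Creso at MS of -1.16 in CS against -1.24 for the first. Of the cluster's non-members, Ta.438.1.S1_x_at had mean signals of 3974.7, 10358.0 and 19377.3 in CS and of 18692.0, 20542.0 and 28249.3 in Creso. Ta.438.3.S1_at went from 1821.9 through 2383.1 to 4317.4 in CS and from 1429.7 through 1641.8 to 4278.4 in Creso. Both thus rose from CTRL to SS in Creso too, and for the member Ta.438.2.S1_x_at every Creso SS signal lay above every Creso CTRL signal. The MS mean of Ta.438.3.S1_at was higher in CS than in Creso. For TaAffx.32266.1.A1_at the mean signals were 116, 248 and 537 in CS and 687, 1149.7 and 899 in Creso, and the difference from Creso at MS was -2.23 in CS (SE 0.31, adjusted p = 2.6e-06).

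The genotypes were compared at MS over all tested probe sets, where an adjusted p under 0.05 and at least 2-fold counted as a call. Against Creso, 36 members were called lower in CS, where 12.1% of all tested probe sets were, and 12 were called higher, where 14.1% were. In CS_5AL-10, 44 members were called lower, where 18.9% of all tested were, and 11 higher, where 14.5% were. Calls in both bread wheats numbered 30 lower, where 9.63% of all tested were, and 9 higher, where 12.0% were. Both comparisons share the Creso MS arrays. The methods' t-test called 10 lower and 6 higher in CS and 22 lower and 7 higher in CS_5AL-10. The median difference over the members was -0.66 in CS and -0.89 in CS_5AL-10, beside -0.18 and -0.29 over all tested probe sets. Without centring, the medians over all tested were -0.04 and 0.03, those over the members -0.52 and -0.56, and the calls for CS_5AL-10 were 28 lower and 18 higher. The Creso floor of 100 in the rule left out probe sets that were dim in Creso CTRL, which bears on the count of members higher in bread wheat.

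The CTRL level of Creso sorted the members. It was above the CS SS level for 61, between the CS CTRL and CS SS levels for 33 and below the CS CTRL level for 15, on the centred scale. The median CTRL level was 1.29 higher in Creso than in CS over the members and 0.28 higher over all tested probe sets. Every Creso CTRL array was above every CS CTRL array on 88 members, against 36.0% of all tested probe sets, and below on 8, against 20.3%. Of the 61, 33 were called lower in CS than in Creso at MS and none higher. Of the 15, 10 were called higher and none lower. The CTRL and SS arrays made these classes, and the rule kept Creso SS near Creso CTRL. The direction at MS was thus largely set beforehand, and these counts are a description. No share over all probe sets sorted in this way is given here. The rise from CTRL to MS was of like size in these groups, with a median of 0.83 in CS for the 61, 0.95 for the 33 and 0.80 for the 15.

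**Figure D4:**
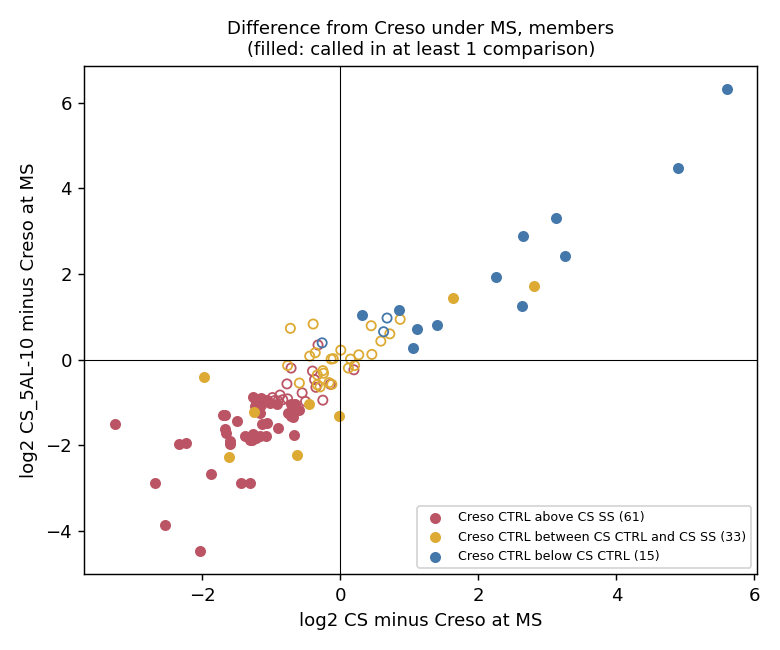
Log2 difference from Creso at MS for CS (horizontal) and CS_5AL-10 (vertical), 1 point per member, coloured by where Creso CTRL lay relative to the CS CTRL and SS levels, with called members filled. The 61 members with Creso CTRL above CS SS lie mostly at the lower left and the 15 with Creso CTRL below CS CTRL at the upper right. The colours come from the CTRL and SS arrays, which largely set these sides beforehand. Both axes share the Creso arrays.

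The members with the largest excess in Creso at MS included aspartate kinase (Ta.28675.1.A1_at), the entry enzyme of lysine, threonine and methionine synthesis. Its signals were 1631, 1449 and 1623 in CS CTRL, 1983, 2149 and 1960.0 in CS MS and 3478, 3318 and 3802 in CS SS, against 8282, 11379 and 13132 in Creso CTRL, 9699, 13746 and 12578 under MS and 17851, 13688 and 14809 in SS. Every bread wheat array lay below the lowest Creso array. The difference at MS was -2.68 in CS (SE 0.17, adjusted p = 2.8e-12) and -2.88 in CS_5AL-10 (SE 0.17, adjusted p = 7.2e-13). The unnamed TaAffx.98909.1.A1_s_at had CTRL signals of 61.6 to 119 and MS signals of 51.5 to 121 in CS, and 719 to 1008 in Creso MS (adjusted p = 1.6e-07). The CS signals lie around the array medians, so no exact fold is given. In CS the MS and CTRL arrays overlapped, while in CS_5AL-10 the MS signals of 280.4, 252 and 645 lay above the CTRL signals of 80.7 to 105.9. For TaAffx.57864.1.S1_at the difference was -2.34 in CS (SE 0.31, adjusted p = 1.7e-06).

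At the other end, 8 members had a Creso CTRL mean signal no more than 0.5 times that of CS CTRL, and 2 of these no more than 0.1 times. Ta.9400.3.S1_x_at, unnamed itself, had signals of 3757, 6978 and 10754 in CS CTRL, 12930.0, 15600.0 and 9558 in CS MS and 22779, 21089 and 21816 in CS SS. In Creso its signals were 67.9, 302 and 179 in CTRL, 165, 266 and 229.6 under MS and 71.2, 194 and 351 in SS. The difference at MS was 5.60 in CS (SE 0.43, adjusted p = 1.4e-10) and 6.33 in CS_5AL-10 (SE 0.43, adjusted p = 1.4e-11). Another probe set of the cluster, Ta.9400.1.S1_at, which the study's supplementary annotation names as a metallothionein-like protein (metallothioneins are small metal-binding proteins), had mean signals of 11460.2, 16923.7 and 23763.3 in CS and of 9.0, 25.6 and 29.6 in Creso. It was looked up after the values were seen.

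Ta.30942.1.S1_a_at, an expressed protein of unknown role, had signals of 2775, 2774 and 3004 in CS CTRL, 8914, 12027 and 4318 in CS MS and 12326, 6834 and 7125 in CS SS, and of 107 to 214 in Creso CTRL. Its difference at MS was 4.90 in CS (SE 0.31, adjusted p = 4.2e-12). A ferric reductase-like protein (Ta.21208.1.S1_at), of a family that reduces iron at membranes, had signals of 1676, 1186 and 1376 in CS CTRL, 2636, 2212 and 1951 under MS and 4454, 4427 and 4875 in SS, and of 128 to 355 over all Creso arrays. Its difference at MS was 3.26 in CS (SE 0.22, adjusted p = 1.7e-11) and 2.43 in CS_5AL-10 (SE 0.22, adjusted p = 2.9e-09). The In2-1 protein (Ta.3784.1.S1_a_at), named after a maize gene induced by herbicide safeners, had mean signals of 4893, 6835 and 12580.3 in CS and of 919.8, 971 and 1307 in Creso, with a difference at MS of 2.65 (SE 0.22, adjusted p = 8.3e-10). For Ta.30942.1.S1_a_at and Ta.21208.1.S1_at the Creso ratio is one of low signals.

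The cluster Ta.21131 held 4 members, of which 3 match TIR1-like F-box proteins, the auxin receptors that mark repressor proteins for breakdown. Their Creso levels disagreed. Ta.21131.1.S1_x_at had signals of 936, 1039 and 1311 in CS CTRL, 1592, 2189.8 and 2524 under MS and 2441, 2694 and 2351 in SS, and of 167 to 372 over all Creso arrays, and was higher than Creso at MS by 3.12 in CS (SE 0.21, adjusted p = 1.7e-11). Ta.21131.3.S1_x_at had signals of 1631, 1101 and 1261 in CS CTRL and of 1531, 2131 and 1952 in Creso CTRL, which overlap, and its difference at MS (0.72, SE 0.27, adjusted p = 0.032) was under 2-fold. Its means were 3682 in CS MS and 5306 in CS SS, and 2073 and 2388 in the same groups of Creso. Probe sets of 1 cluster may measure different copies of a gene, and which copies they measure was not tested.

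The B-box zinc finger cluster Ta.12387 was called in all 4 of its member probe sets between the bread wheats. B-box proteins are plant regulators, several of which act in light signalling in Arabidopsis. For Ta.12387.1.A1_at the signals were 2980.3, 1574 and 1757 in CS CTRL, 4291, 5808 and 4038 in CS MS and 7678, 5906 and 4884 in CS SS. In CS_5AL-10 they were 1198, 1177 and 1165 in CTRL, 1880.5, 1961 and 1941 under MS and 3175, 3693 and 3267 in SS. In Creso they were 10903, 11079 and 11376 in CTRL, 12604, 10518 and 11195 under MS and 14777, 13016 and 15146 in SS, so that the 3 genotypes did not overlap at any treatment. At MS, CS_5AL-10 was lower than CS by -1.44 (SE 0.19, adjusted p = 1.9e-05) for this probe set, by -1.58 (SE 0.20, adjusted p = 5.6e-06) for Ta.12387.1.A1_x_at, by -1.30 (SE 0.15, adjusted p = 2.3e-06) for Ta.12387.2.S1_s_at and by -1.40 (SE 0.18, adjusted p = 1e-05) for Ta.12387.2.S1_x_at.

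Against Creso these 4 probe sets went in different directions. At MS, CS was lower than Creso for Ta.12387.1.A1_at (-1.43, adjusted p = 1.8e-06), at nearly the same level for Ta.12387.2.S1_s_at (-0.02, SE 0.15, adjusted p = 0.93) and higher for Ta.12387.2.S1_x_at (2.64, adjusted p = 1.7e-11). The last had signals of 1526, 1577 and 1824 in Creso CTRL against 7061, 4215 and 4735 in CS CTRL. The level in Creso thus depended on the probe set. The rise from CTRL to SS in bread wheat was set by the rule, and all MS arrays lay above all CTRL arrays for all 4 in CS but, in CS_5AL-10, for neither Ta.12387.2.S1_s_at nor Ta.12387.2.S1_x_at.

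**Figure D5:**
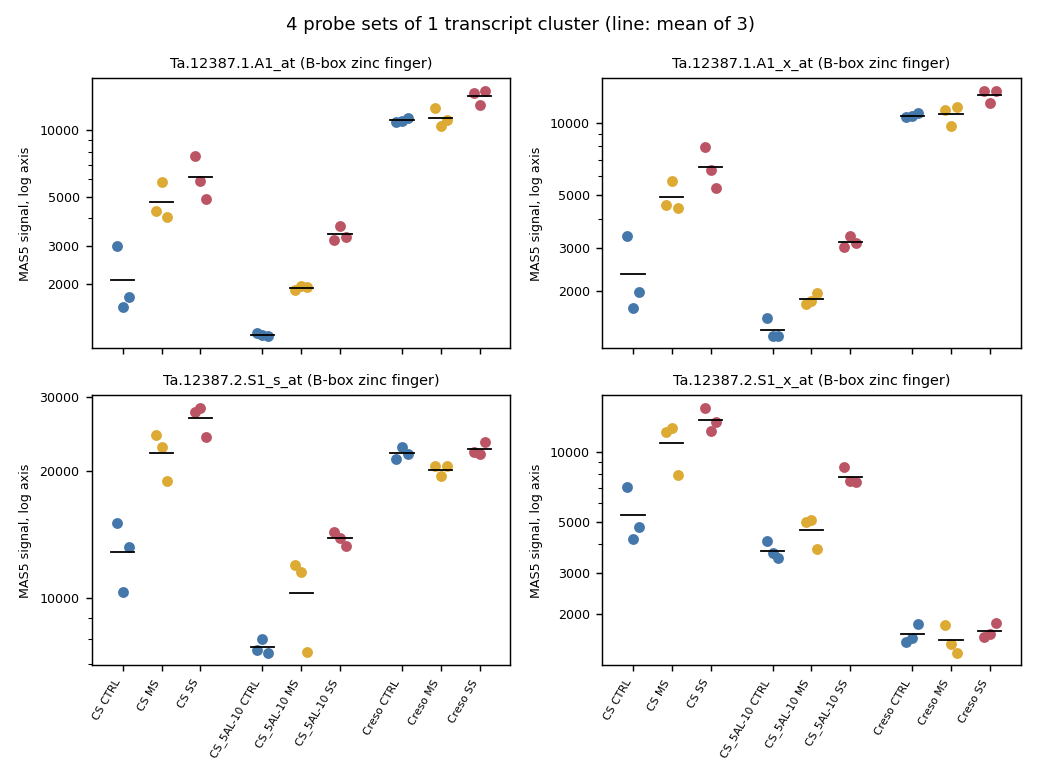
MAS5 signal (log axis) of the 4 probe sets of the B-box zinc finger cluster Ta.12387 on each array, with a line at the mean of 3. CS_5AL-10 lies below CS at each treatment in all 4 panels, and Creso lies highest in the upper panels and lowest in the lower right panel.

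CS_5AL-10 differed from CS at MS on 12 members, of which 8 were called lower, where 2.77% of all tested probe sets were, and 4 higher, where 1.21% were. The 8 lower calls come from 5 transcript clusters, since the B-box cluster gives 4. The unnamed TaAffx.70203.1.S1_s_at had signals of 453, 566 and 615 in CS MS and of 102, 54.6 and 167 in CS_5AL-10 MS (adjusted p = 7.7e-05). The latter lie around the array medians, so no exact fold is given. Its CTRL signals were 385, 303 and 384 in CS, 16.4, 50.8 and 9.6 in CS_5AL-10 and 2661, 1886 and 2117 in Creso. TaAffx.107943.1.S1_at (-1.62, adjusted p = 0.0036) and TaAffx.3993.1.S1_at (-1.34, adjusted p = 0.012) were also lower. For the latter all 3 MS arrays of CS_5AL-10 lay below its CTRL arrays on the centred scale. The 4 higher calls were Ta.19896.1.A1_at, TaAffx.98909.1.A1_s_at (adjusted p = 0.0043), TaAffx.113803.1.S1_at (1.46, SE 0.26, adjusted p = 0.0006) and Ta.11.2.S1_x_at (1.22, SE 0.24, adjusted p = 0.002). Of these, TaAffx.113803.1.S1_at and Ta.11.2.S1_x_at were named after their values were seen. With the 5 MS arrays of high endosperm level left out, which leaves 1 array in each bread wheat, assumed to vary like the other groups, 2 members were called, both lower. The methods' t-test, an alternative, called none.

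Of the remaining lists, sugar, starch and cell wall held 5 members of 117 tested. A hydroxyproline-rich glycoprotein (Ta.22817.2.S1_a_at), of a class of cell wall proteins, had signals of 4169, 3414 and 3063 in CS CTRL, 7447, 8301 and 8208 in CS MS and 11771, 8692 and 8502 in CS SS, and was lower than Creso at MS by -1.14 in CS (SE 0.18, adjusted p = 1.7e-05). An alpha-amylase (Ta.10281.1.S1_a_at), which breaks down starch, had mean signals of 787, 1224 and 1606 in CS and of 620.4, 626 and 872 in Creso, and was higher than Creso at MS in CS_5AL-10 (1.16, SE 0.21, adjusted p = 8.2e-05). A sorbitol dehydrogenase (Ta.21428.1.S1_x_at), an enzyme of sugar alcohol breakdown, did not pass the test against Creso at MS in CS (-0.33, SE 0.17, adjusted p = 0.14). It rose in Creso too, from 8045, 6872.5 and 7829 in CTRL to 10405, 10160 and 10875 in SS, a ratio of means of 1.382. The study, on RMA values, places this probe set in clusters raised to a similar extent in all 3 genotypes and links the enzyme to sorbitol accumulation.

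The lipid list held 3 members of 37 tested. An alpha/beta hydrolase with weak similarity to a lipase was measured by Ta.345.1.S1_x_at, with signals of 374, 292 and 416 in CS CTRL, 644, 808 and 552 in MS, 1150.5, 947 and 948 in SS and 1541, 1867 and 2048 in Creso CTRL. It was lower than Creso at MS by -1.59 in CS (SE 0.20, adjusted p = 4.7e-07), and the member Ta.345.1.S1_at by -1.65. Ta.345.2.S1_x_at, a probe set of this cluster with the same match but no member, lay the other way. Its mean signals were 427.4, 492.5 and 999.6 in CS CTRL, MS and SS and 219.5, 181.6 and 81.7 in Creso. The direction against Creso thus depended on the probe set. Ta.13426.1.S1_s_at, with a weak match to a phosphatidylcholine transfer protein of the rat, was the member closest to the lower Creso limit, with a ratio of 0.68557. It rose from a mean of 1648 to 4660.4 in CS and went from 4759 to 3262 in Creso.

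Annexin 7 (Ta.1577.1.S1_at), of a family of calcium-dependent membrane-binding proteins, had signals of 1963, 1936 and 1698 in CS CTRL, 3751, 3973 and 4616 under MS and 4557, 3989.6 and 3733 in SS, so that MS and SS overlapped. In CS_5AL-10 the MS signals of 3981, 3997 and 4637 lay below the SS signals of 5281, 4641 and 4733. It was 1 of the 7 members with all MS arrays above all CTRL arrays in Creso too, at 2994, 3458 and 3581 against 2256, 2636 and 2517, and at MS its difference between CS and Creso did not pass the test (0.15, SE 0.15, adjusted p = 0.45). An ADP/ATP carrier of mitochondria (Ta.2491.1.S1_at) was the 1 named member of the transporter list, with a mean signal of 97.8 in CS CTRL and 248 in CS SS. No member was in the defence list (38 tested) or the LEA, dehydrin and chaperone list (31 tested). Members make up 0.32% of all tested probe sets and 58 of them have no name, so a count of 0 in lists of this size is no result about these genes.

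Over the whole photosynthesis list, members included, 20 of 94 tested probe sets were called lower and 5 higher in CS than in Creso at MS, beside 12.1% and 14.1% of all tested. In CS_5AL-10 43 were lower and 7 higher, beside 18.9% and 14.5%. CS_5AL-10 was called lower than CS on 14 of them and higher on 1, beside 2.77% and 1.21%. The list median at MS was -0.56 for CS and -0.92 for CS_5AL-10 against Creso. Most of the list was chosen by the study from these arrays, so it is not independent evidence of its direction.

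The clusters of the members held 63 other tested probe sets, in 35 clusters, that did not meet the rule. Their median difference between MS and CTRL was 0.59 for CS, 0.53 for CS_5AL-10 and 0.19 for Creso. All MS arrays lay above all CTRL arrays on 58.7%, 57.1% and 12.7% of them. For CP26 the other probe set gave mean signals of 8859.2, 18310.3 and 25794.7 in CS and of 24935.7, 25739.7 and 27284.3 in Creso, nearly those of the member. In the LHCB2 cluster another probe set (Ta.27751.6.S1_at) was lower in Creso, with 4117.8 in CTRL against 6059.8 in CS CTRL. Probe sets marked as able to bind several transcripts (suffixes _s_at and _x_at) made up 11.0% and 15.6% of the members and 6.2% and 15.2% of all tested, so their signals can mix related genes.

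The limits of the rule passed through a continuous range of values. Just inside the bread wheat ratio of 1.5 were Ta.763.3.A1_x_at (1.502) and PSBS (1.5023), and just outside were TaAffx.9493.1.S1_at (1.4957) and Ta.3784.1.S1_x_at (1.4924), which is another In2-1 probe set. Under the upper Creso limit of 1.5 were PSBS (1.492) and Ta.438.2.S1_x_at (1.4813), and over it Ta.5703.1.S1_x_at (1.5027) and Ta.12030.1.A1_at (1.5069). Near the lower Creso limit of 0.67 were Ta.13426.1.S1_s_at (0.68557) and the PsbP family member (0.71701) inside, and Ta.6034.1.S1_at (0.65026) and Ta.12394.1.A1_at (0.59533) outside. At the Creso floor of 100, TaAffx.32226.1.S1_at (102.81) and TaAffx.51521.1.S1_at (111.22) were kept and Ta.18152.1.S1_x_at (94.875) and TaAffx.59660.1.S1_at (91.223) were not. A ratio of 2 in place of 1.5 left 17 members, among them the glycine-rich protein, the UGT72B1 match and the LHCB2 match.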

How the data were processed

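Glume RNA of 27 samples was hybridised to 1-colour Affymetrix Wheat Genome Arrays. The authors deposited 1 table of linear signal intensity per probe set, made with MAS5 (version not given in the sources used here), whereas their own analysis used RMA values. The number of arrays limits the precision.

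After 111 control probe sets were dropped, 16 was added to each intensity before log2, and array medians were made equal. Probe sets above the array median on all 3 arrays of at least 1 group were tested (34089). The 9 groups were modelled together with limma 3.58.1 (R 4.3.3), with a variance trend and Benjamini-Hochberg adjustment over all tested. The procedure was tested on simulated data. Alternatives were other scalings, offsets and filters, no fold limit, the methods' t-test, a replicate block, other limits of the rule and single arrays left out. A fit of the 9 MS arrays alone was a further alternative.

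The members, the lists and the comparisons were chosen with earlier results of these data known. Text named up to 4 members of each list by the smaller bread wheat ratio, the 6 with the largest ratio, the 6 highest and 6 lowest for CS minus Creso at MS, and those nearest each limit. All other probe sets in the text, among them further photosynthesis members, Prx1, sorbitol dehydrogenase, annexin 7 and members called between the bread wheats, were named after their values were seen. Names came from the platform annotation, where 1272 of 1273 gene IDs were found in RefSeq, and from Arabidopsis matches for 1067 of the 1420 probe sets held of the study's drought list, which is held in part. Promoter motifs and sequences were not analysed here.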

Additional observations from a re-analysis of the deposited data

How the results depend on the processing

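Limits: with 3 arrays a group, and signals near the array medians for dim members, small differences could not be called. The replicate numbers shared by the groups did not pair the samples, since correlations of same-numbered deviations within a genotype ran from -0.57 to 0.20. At MS across genotypes they were 0.18 to 0.37 for number 1 and 0.22 to 0.30 for number 3, but -0.20 to 0.22 for number 2. With the number as a replicate block the calls at MS were 48, 55 and 12 for CS against Creso, CS_5AL-10 against Creso and CS_5AL-10 against CS, as without it. A fit of the 9 MS arrays alone, which takes no spread from the CTRL and SS arrays, gave 48, 55 and 11. The methods' t-test called 16, 29 and 0. Without a fold limit 78, 80 and 24 members passed. With the 5 MS arrays of endosperm level over 8 left out, chosen after seeing the data, CS_5AL-10 against CS gave 2, and the others 49 and 53. Leaving out 1 MS array gave 43 to 50, 51 to 65 and 10 to 12 calls. For CS_5AL-10 against Creso, quantile normalization gave 28 lower and 15 higher. The calls of all these alternatives are counts of members, with no share over all tested probe sets worked out beside them. The median of CS_5AL-10 minus CS at MS was -0.16 and became 0.02 without centring and 0.04 with quantile normalization.

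The number of members was 17 with a ratio of 2, 359 with a looser ratio and 41 with Creso limits of 0.8 and its inverse. It was 94 to 157 with 1 CTRL or SS array left out, 157 of them without CS_5AL-10 SS replicate 3. On centred signals 99 probe sets met the rule and 67 of these were members. The median MS minus CTRL difference in CS was 0.72 without centring and 0.73 with quantile normalization, and 0.81 to 0.96 with 1 array left out. In CS_5AL-10 it was 0.63 to 0.80, and in Creso 0.07 to 0.24, with 1 array left out. Members with all MS above all CTRL in Creso numbered 11 without centring and 14 with quantile normalization. The median CTRL level of Creso minus CS was 1.04 under either, and 1.21 to 1.39 with 1 array left out. The cause of these shifts was not tested.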
